A study of Mus musculus with 12 samples.

Results

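The genotype difference averaged over both diets was read from 11 of the 12 cardiomyocyte libraries of the series: the mean of the groups labelled ApoE KO CD and ApoE KO HFD, minus the mean of the groups labelled Wt CD and Wt HFD, each group with equal weight. The second question was which genes kept one direction on chow and on high fat diet taken separately. Wt HFD replicate 3 was left out, because most of its counts stood on the opposite strand. Where non-coding genes overlap coding genes antisense (1162 pairs), the non-coding partner took 68.5% of the pair's counts in this library, with a 95% confidence interval by Wilson's method of 68.35 to 68.7%. In the remaining 11 libraries that share was 0.376 to 0.509%. The column header in the file of this library is also the same as that of ApoE KO CD replicate 1, so which sample it holds is uncertain. That left 6 knockout-labelled libraries, 3 per diet, and 5 wild-type-labelled libraries, 3 on chow and 2 on high fat diet.

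The mice were male, 7 to 8 weeks old at the start, and had 7 weeks of diet. Libraries labelled Wt are from C57BL/6J mice, and those labelled ApoE KO are from the strain B6.129P2-Apoe tm1Unc/J, which lacks apolipoprotein E throughout the body and whose name records an allele made in 129P2 cells and crossed onto C57BL/6. CD is standard chow, and HFD is a Western diet rich in fat and cholesterol. Whether replicates are separate animals is not stated in the labels. The p-values therefore refer to the spread among libraries, which may in part be technical.

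Apolipoprotein E is a protein on the surface of circulating lipoproteins that lets cells take up lipoprotein remnants through receptors on their surface. Cardiomyocytes live mainly on fatty acids, which lipoprotein lipase frees at the capillary wall and which the nuclear receptor PPAR-alpha links to the transcription of genes for their use. Sterols are sensed by the nuclear receptors LXR, whose targets export cholesterol and, through the transcription factor SREBP-1, raise fatty acid synthesis and desaturation.

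The 11 libraries held 22130323 to 46424614 counts, of which 51.5 to 71.3% fell on the mitochondrial genome. Summed markers of ventricular cardiomyocytes came to between 91872 and 108401 CPM (counts scaled to library totals and TMM factors), and those of endothelium to between 96.9 and 232.6. Lymphocyte and neutrophil markers summed to between 0.846 and 2.19 CPM.

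Apoe itself (chromosome 7, 19696109 to 19699188, minus strand, GRCm38) did not follow the labels on chow. The 3 libraries labelled Wt CD had 54, 92 and 96 Apoe counts, and the 3 labelled ApoE KO CD had 274, 602 and 898. On high fat diet the order was the other way, with 379 and 691 counts in the 2 libraries labelled Wt HFD and 81, 81 and 126 in the 3 labelled ApoE KO HFD. The counts cover the whole gene, including any exon that the knockout allele leaves in place. The log2 difference between knockout and wild-type labels was 2.69 on chow and −2.34 on high fat diet, so that the average was 0.17 (SE 0.38, edgeR adjusted p = 0.938). Groups are therefore named below by their labels, and every direction is that of the labels. By arithmetic, if the 2 chow labels were exchanged, the sum of the diet-specific differences tested here would be the diet-by-genotype interaction of the exchanged labels.

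In the averaged contrast 17 of 16932 genes changed at an adjusted p under 0.05 in edgeR's quasi-likelihood test with Benjamini-Hochberg adjustment, which is 0.1% of the genes tested. One gene was higher under the knockout label (0.00591%): Abat, the enzyme that breaks down the transmitter GABA in mitochondria. The other 16 were lower (0.0945%), among them genes of fatty acid handling (Acot1, Acot2, Mgll), of sterol-regulated lipid synthesis and efflux (Srebf1, Scd2, Scd4, Abca1), of the endothelium (Gpihbp1, Sema3g) and the immediate early gene Fos. The log2 differences of the 17 genes had the same sign on both diets for 14 (49.1% of all genes) and opposite signs for 3 (Scd2, Lgals4 and Gm20594). The 14 include Atp5k and Gm11407, which had only −0.01 and −0.05 on high fat diet. A call on the average of both diets itself favours equal signs, so the count of 14 does not support the calls. The number of calls depended on single libraries: it was 273 without Wt CD replicate 2, 3 without ApoE KO CD replicate 3, and 0 when the library labelled Wt HFD replicate 3, whose sample is uncertain, was added (912 genes at an unadjusted p under 0.05, against 1378, or 8.14%, without it).

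**Figure D1:**
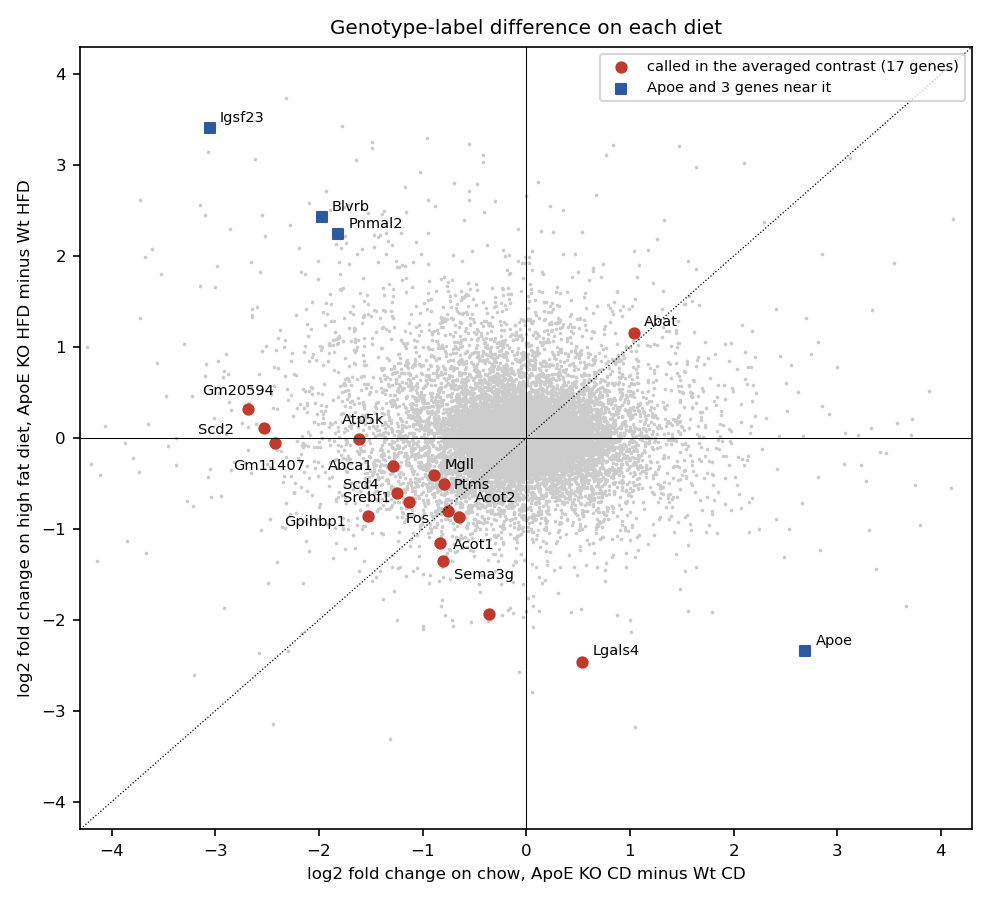
Log2 fold change between knockout and wild-type labels on chow (horizontal axis) and on high fat diet (vertical axis) for the genes tested, with the 17 genes called in the averaged contrast in red and Apoe with 3 genes near it in blue; 13 genes lie outside the axes. Abat sits near the dotted line of equal change at 1.04 and 1.16, most called genes lie at the lower left, and Apoe lies at 2.69 and −2.34.

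Abat (chromosome 16, 8513429 to 8621568, plus strand) was at 3.89, 4.08 and 3.95 CPM in the libraries labelled Wt CD and at 7.82, 6.88 and 9.66 in those labelled ApoE KO CD. With high fat diet it was at 2.52 and 3.67 CPM under the wild-type label and at 7.92, 6.05 and 6.84 under the knockout label. Every knockout-labelled library was above every wild-type-labelled one, with no library near the gap. The averaged log2 fold change was 1.10 (SE 0.14, edgeR adjusted p = 0.00667), made of 1.04 on chow and 1.16 on high fat diet. The interaction of diet with label was 0.12 (SE 0.28, edgeR adjusted p = 0.932). Leaving out any 1 of the 11 libraries kept Abat called, at 0.99 to 1.26 on the log2 scale. Of the 12 other alternatives it was called in 11, the exception being the fit with all 12 libraries.

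Both Acot1 and Acot2 encode acyl-CoA thioesterases, the first in the cytosol and the second in mitochondria, and both are known targets of PPAR-alpha. They lie side by side on chromosome 12 (Acot1 at 84009490 to 84018371, Acot2 at 83987861 to 83993873, both on the plus strand). The 2 are close paralogs, and how the authors' counting divided reads that match both is not given in the sources used here, so their values may not be independent. Acot1 was at 6.55, 7.93 and 7.67 CPM under Wt CD and at 3.74, 4.61 and 4.12 under ApoE KO CD, and at 6.08 and 10.04 under Wt HFD against 3.92, 2.80 and 4.11 under ApoE KO HFD. All 6 knockout-labelled libraries were below all 5 wild-type-labelled ones. Acot1 fell by 0.99 on the log2 scale (SE 0.15, edgeR adjusted p = 0.0135), with −0.83 on chow and −1.15 on high fat diet.

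Acot2 was at 36.6, 60.2 and 46.1 CPM under Wt CD and 23.6, 32.7 and 34.5 under ApoE KO CD. Under Wt HFD it was at 53.9 and 56.0 CPM, and under ApoE KO HFD at 36.7, 28.6 and 25.1. The groups did not overlap on either diet, although ApoE KO HFD replicate 1 reached the level of Wt CD replicate 1. Its averaged log2 fold change was −0.76 (SE 0.14, edgeR adjusted p = 0.0308).

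Mgll, the lipase that splits monoacylglycerols, had an averaged log2 fold change of −0.65 (SE 0.12, edgeR adjusted p = 0.0308). It ranged from 17.7 to 22.4 CPM under Wt CD and from 9.62 to 12.3 under ApoE KO CD, which did not overlap. With high fat diet the values were 15.6 and 21.9 CPM against 13.1, 13.6 and 15.8, and the lowest wild-type-labelled library lay below the highest knockout-labelled one. Predicted genes overlap Mgll on its strand, and reads in the shared stretches cannot be assigned with certainty.

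Srebf1 (chromosome 11, 60199089 to 60222581, minus strand) encodes SREBP-1, the transcription factor of fatty acid synthesis. It was at 25.5, 28.5 and 39.5 CPM under Wt CD, and at 9.65, 17.9 and 15.2 under ApoE KO CD. Under Wt HFD it was at 26.4 and 25.5 CPM, and under ApoE KO HFD at 15.6, 16.6 and 15.5. All 6 knockout-labelled libraries were below all 5 wild-type-labelled ones. The averaged log2 fold change was −0.92 (SE 0.14, edgeR adjusted p = 0.0135), −1.13 on chow and −0.71 on high fat diet.

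Abca1 (chromosome 4, 53030787 to 53159895, minus strand), the LXR target that exports cholesterol to lipid-poor apolipoproteins, had an averaged log2 fold change of −0.80 (SE 0.12, edgeR adjusted p = 0.0112). Its levels were 67.1, 72.8 and 60.4 CPM under Wt CD and 24.8, 34.9 and 22.5 under ApoE KO CD. The gap was narrower on high fat diet, with 58.5 and 45.4 CPM under Wt HFD and 41.5, 40.8 and 44.0 under ApoE KO HFD. The groups stayed apart on that diet too, with the lowest wild-type-labelled library just above the highest knockout-labelled one. The diet-specific log2 fold changes were −1.29 and −0.30, and the interaction of 0.98 (SE 0.24) had an edgeR adjusted p of 0.143.

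The stearoyl-CoA desaturases, which introduce the double bond of oleate and palmitoleate, lie together on chromosome 19 and are close paralogs, so that the division of shared reads among them is uncertain. Scd2 was at 16.8, 17.6 and 10.04 CPM under Wt CD and at 2.81, 2.35 and 2.53 under ApoE KO CD. Its groups overlapped on high fat diet, with 9.29 and 6.55 CPM against 6.41, 10.1 and 9.19. The averaged change of −1.21 (SE 0.16, edgeR adjusted p = 0.00667) was therefore a change on chow (−2.52) beside 0.11 on high fat diet, and the interaction was called (2.64, SE 0.34, edgeR adjusted p = 0.000648).

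Scd4 kept its direction on both diets. It was at 9.49, 11.5 and 12.4 CPM under Wt CD and 4.42, 6.36 and 3.41 under ApoE KO CD, and at 8.88 and 6.93 under Wt HFD against 4.66, 4.48 and 6.39 under ApoE KO HFD. No knockout-labelled library reached the lowest wild-type-labelled one, and the averaged log2 fold change was −0.92 (SE 0.16, edgeR adjusted p = 0.0277). Scd1, named here after its values were seen, had −1.66 on chow, 0.37 on high fat diet and −0.64 on average (edgeR adjusted p = 0.594).

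Gpihbp1 (chromosome 15, 75596628 to 75599481, plus strand) encodes the protein of capillary endothelium that anchors lipoprotein lipase. It was at 6.48, 3.02 and 5.83 CPM under Wt CD and 2.42, 1.35 and 1.52 under ApoE KO CD, and at 3.9997 and 3.986 under Wt HFD against 1.82, 2.43 and 2.40 under ApoE KO HFD. All 6 knockout-labelled libraries were below all 5 wild-type-labelled ones, of which Wt CD replicate 2 was the lowest. The averaged log2 fold change was −1.19 (SE 0.21, edgeR adjusted p = 0.0277).

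Sema3g, a secreted semaphorin made by arterial endothelium, was at 2.59, 4.36 and 4.21 CPM under Wt CD and 2.59, 2.31 and 1.52 under ApoE KO CD. The high fat diet values were 7.45 and 4.90 CPM against 2.39, 2.35 and 2.50. The chow groups nearly met, at 2.593 CPM in Wt CD replicate 1 and 2.588 in ApoE KO CD replicate 1, while the high fat diet groups were well apart. The averaged change was −1.07 (SE 0.19, edgeR adjusted p = 0.0277), −0.80 on chow and −1.35 on high fat diet.

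Markers of endothelium, the cells that line vessels, lay below 0 as a list, and none besides Gpihbp1 was called. Of 20 endothelial markers tested, Gpihbp1 among them, 20 had a log2 difference below 0 in the averaged contrast, against 48.4% of all genes tested. Their median was −0.57 (−0.61 on chow, −0.40 on high fat diet), beside 0.01 over all genes. Gpihbp1 included, 12 had an unadjusted p under 0.05 with a lower value (4.38% of all genes tested). Summed over the list, the markers came to 99.0 to 133.5 CPM under ApoE KO CD and 120.8 to 168.9 under ApoE KO HFD, and to 96.9, 212.7 and 231.9 under Wt CD and 161.2 and 232.6 under Wt HFD. Wt CD replicate 2 was the lowest of the 11 libraries and ApoE KO HFD replicate 3 was above Wt HFD replicate 1, and otherwise the knockout-labelled libraries lay below the wild-type-labelled ones. In bulk RNA, fewer cells of a type and less RNA per cell cannot be told apart.

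With the mean of the endothelial markers as a covariate, added after the values were seen, 11 genes were called, of which 6 were among the 17. Gpihbp1 then had −0.72 (edgeR adjusted p = 0.350) and Btnl9, an endothelial butyrophilin-like gene named after its values were seen, moved from −1.11 (edgeR adjusted p = 0.111) to −0.38. Gpihbp1 is one of the markers averaged, so it was partly adjusted for itself and its smaller value was in part built in. Btnl9 is not among those markers, but it was picked with its values known, and the covariate comes from the same libraries. Why its value moved was not tested. Among the genes called with and without the covariate were Abat at 1.11, Sema3g at −1.19, Abca1 at −0.90, Acot2 at −1.03 and Scd2 at −1.37 (edgeR adjusted p between 0.00362 and 0.0331). Acot1 at −0.96, Scd4 at −0.94 and Srebf1 at −0.93 kept their size and had edgeR adjusted p-values of 0.0577, 0.0748 and 0.104.

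Fos, a partner of Jun in the AP-1 factor and induced within minutes of stimulation, was at 81.1, 105 and 112 CPM under Wt CD and at 74.3, 57.9 and 44.1 under ApoE KO CD. Under high fat diet it was at 104 and 65.5 CPM under the wild-type label and at 48.0, 50.4 and 47.9 under the knockout label. The groups did not overlap within either diet, but ApoE KO CD replicate 1 was above Wt HFD replicate 2. The log2 fold changes were −0.76 on chow and −0.80 on high fat diet, and the average was −0.78 (SE 0.14, edgeR adjusted p = 0.0308). In 4 of the 11 fits that left out 1 library Fos was called.

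Other called genes were of mixed kinds. Ptms, which encodes the small acidic chromatin protein parathymosin, was at 16.8 to 20.3 CPM under Wt CD, 9.03 to 12.6 under ApoE KO CD, 15.3 and 16.2 under Wt HFD and 10.8 to 11.3 under ApoE KO HFD. Its groups were apart on both diets, and its averaged log2 fold change was −0.65 (SE 0.11, edgeR adjusted p = 0.0251). Atp5k, a subunit of mitochondrial ATP synthase, was at 63.8, 65.6 and 111 CPM under Wt CD and between 24.2 and 35.4 CPM in the other 8 libraries. Its averaged change of −0.81 (SE 0.14, edgeR adjusted p = 0.0280) was thus a difference of the libraries labelled Wt CD from the rest, −1.61 on chow and −0.01 on high fat diet.

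Lgals4, a galectin, went the other way round, at 37.2 and 36.0 CPM under Wt HFD, 6.70, 6.23 and 7.01 under ApoE KO HFD, and in overlapping ranges on chow (10.5 to 21.9 and 18.7 to 28.5 CPM). Its averaged log2 fold change was −0.96 (SE 0.15, edgeR adjusted p = 0.0215). Also called were the predicted gene Gm20594 and the pseudogene Gm11407, both outside the rule for named genes and named after their values were seen. Gm20594 averaged 106.9 ± 8.29 CPM under Wt CD (SD, n = 3) and 16.6 ± 1.51 under ApoE KO CD (SD, n = 3), and Gm11407 averaged 8.26 ± 1.97 and 1.51 ± 0.698 in the same groups (SD, n = 3). Both differed on chow, by −2.68 and −2.43 on the log2 scale, with 0.32 and −0.05 on high fat diet.

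**Figure D2:**
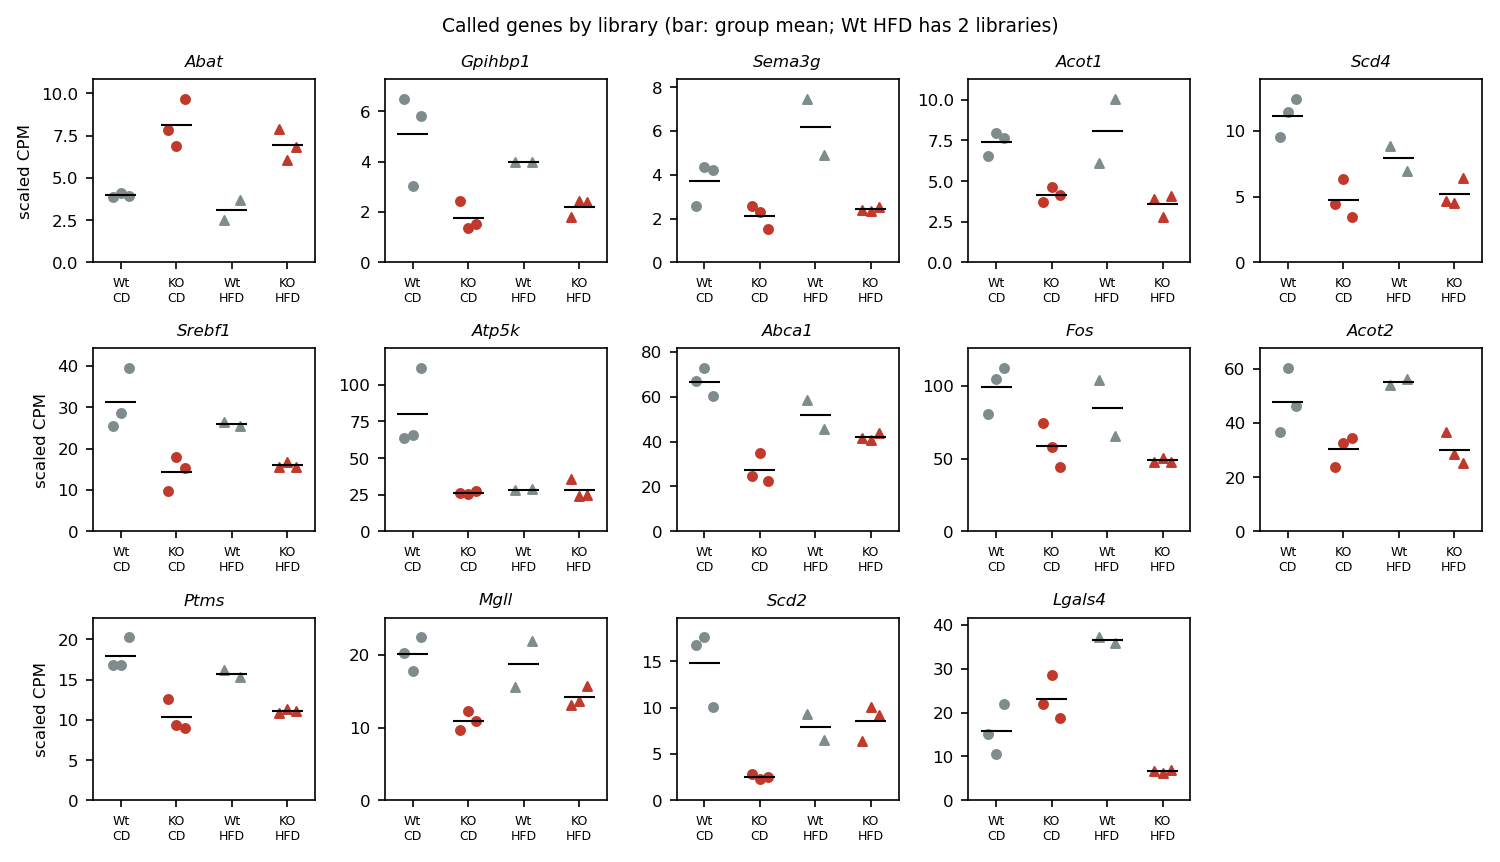
TMM-scaled CPM of 14 named genes called in the averaged contrast, by library (points) with group means (bars), grey for wild-type and red for knockout labels, circles for chow and triangles for high fat diet. Abat is higher in all 6 knockout-labelled libraries, while Atp5k is high in the libraries labelled Wt CD alone and Lgals4 separates by label on high fat diet only.

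Among the 17 called genes, 10 had groups that did not overlap in the same direction on both diets, 5 were apart on chow only and 2 on high fat diet only. Across all genes tested, 1.77% were apart in one direction on both diets. For 8 called genes all 6 knockout-labelled libraries were on one side of all 5 wild-type-labelled ones (0.785% of all genes, 0.455% above and 0.331% below): Abat above, and Gpihbp1, Sema3g, Acot1, Scd4, Srebf1, Abca1 and Ptms below. The same libraries gave the calls, so these counts describe the called genes and do not support them. The interaction of diet with label was itself called for 5 of the 17 (Scd2, Lgals4, Atp5k, Gm20594 and Gm11407), against 0.219% of all genes, and 7 had an unadjusted interaction p under 0.05 (8.2%). Taken by diet, 11 of the 17 were also called on chow (0.508% of all genes) and 2 on high fat diet (0.0472%). The averaged contrast is made of these 2 comparisons, so such overlap is in part built in and does not support the calls.

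When each called gene was refitted with 1 library left out, Abat and Scd2 were called in 11 of 11 fits, Srebf1 and Abca1 in 9, Acot1 in 8 and Lgals4 in 6. The other 8 genes plotted were called in 2 to 5 fits. Srebf1 was lost without ApoE KO CD replicate 3 or ApoE KO HFD replicate 2, Abca1 without Wt HFD replicate 1 or ApoE KO CD replicate 3, and Acot1 without Wt HFD replicate 2, ApoE KO CD replicate 3 or ApoE KO HFD replicate 2. None of the 14 changed sign in these fits.

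**Figure D3:**
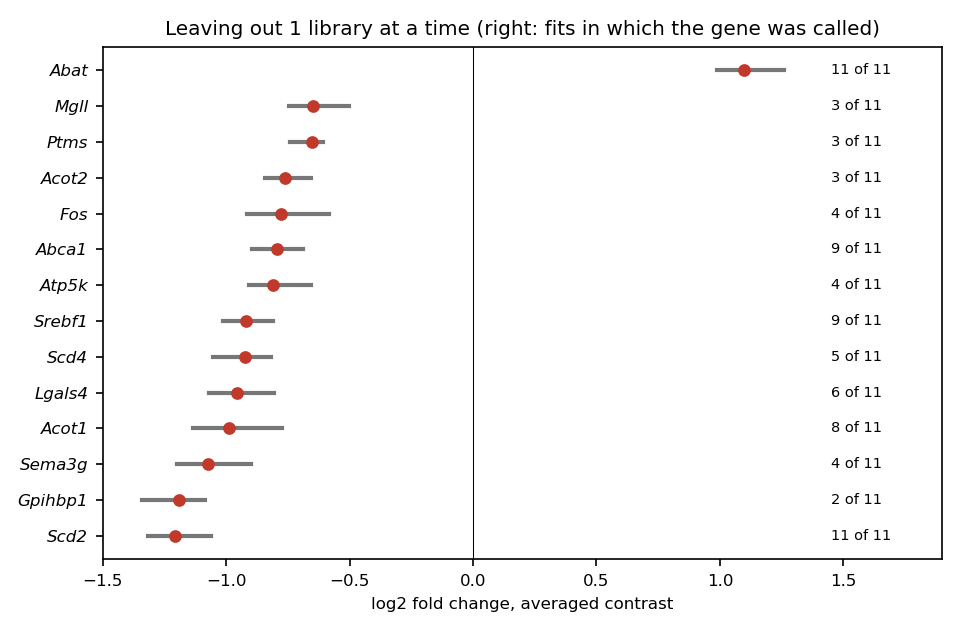
Averaged log2 fold change of 14 named called genes with all 11 libraries (red points) and its range when 1 library was left out at a time (grey bars), with the number of those fits in which the gene was called at the right. No bar crosses 0, and the number of fits with a call runs from 2 for Gpihbp1 to 11 for Abat and Scd2.

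Asking for a change on each diet in one direction was a stricter question. A gene was given the larger of its 2 diet-specific p-values where the signs agreed, and these were adjusted over all genes. With edgeR, 0 genes passed (0%), the lowest adjusted p being 0.741 for Abat, and 93 genes had a larger p under 0.05 before adjustment (0.549%), 27 higher and 66 lower. The mirrored count, of genes with opposite signs and both p-values under 0.05, was 66. After the same adjustment 4 genes passed with opposite signs, against 0 in one direction. Among these 4 were Igsf23, Pnmal2 and Blvrb, which lie within 10 Mb of Apoe and are described below. DESeq2 called 1 gene on both diets, Abat (adjusted p = 0.0143), and edgeR without a filter on low counts called Abat, Fos and Btnl9 (adjusted p = 0.0289 for each). The chow groups of Btnl9 overlapped, at 8.63, 3.18 and 9.17 CPM under Wt CD and 3.68, 3.66 and 2.45 under ApoE KO CD. Its high fat diet groups were apart. Across the genome 49.1% of genes had the same sign on both diets, and the 2 diets share no library.

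By library, 299 genes stood apart in one direction on both diets (1.77%), 163 higher (0.963%) and 136 lower (0.803%) under the knockout label. Genes that stood apart in opposite directions numbered 319 (1.88%). The group of 2 libraries makes such separation easy, and 21.7% of genes were apart on high fat diet and 16.6% on chow.

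Of the genes apart in one direction, those with the smallest larger p include 7 that were higher and not called in the averaged contrast. Fgl2, a fibrinogen-like protein with roles in coagulation and immune regulation, was at 10.2, 8.40 and 4.14 CPM under Wt CD and 14.3, 13.7 and 13.2 under ApoE KO CD. On high fat diet it was at 10.5 and 8.31 CPM against 19.9, 14.4 and 15.03. All 6 knockout-labelled libraries were above all 5 wild-type-labelled ones, with an averaged log2 difference of 0.83 (SE 0.18, edgeR adjusted p = 0.120).

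Sorl1, a sorting receptor that binds apolipoprotein E, was at 9.61, 10.8 and 7.97 CPM under Wt CD and 13.4, 11.5 and 16.9 under ApoE KO CD. Values on high fat diet were lower under both labels, 7.81 and 6.39 CPM against 12.6, 9.37 and 9.67. Within each diet the groups were apart, but 2 of the ApoE KO HFD libraries were in the range of Wt CD. Its log2 differences were 0.56 and 0.57, with an average of 0.57 (SE 0.13, edgeR adjusted p = 0.157).

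Lrrc4b, a synaptic adhesion protein, came closest to a call among the higher genes, at 0.73 (SE 0.14, edgeR adjusted p = 0.0566). It was at 8.91 to 10.8 CPM under Wt CD and 11.4 to 16.1 under ApoE KO CD, and at 6.88 and 8.96 under Wt HFD against 12.1 to 20.2 under ApoE KO HFD. The amino acid transporter Slc38a1 (0.55), the sugar-nucleotide transporter family member Slc35e1 (0.49), the ganglioside synthase St3gal5 (0.46) and Rragd (0.38), a GTPase that links amino acids to mTORC1, had edgeR adjusted p-values between 0.122 and 0.237. Slc35e1 was at 22.1 to 34.4 CPM in the wild-type-labelled and 35.9 to 47.1 in the knockout-labelled libraries, and Rragd at 31.5 to 42.0 and 45.6 to 53.3, so both kept the 2 labels apart over all 11 libraries.

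Of lower genes apart on both diets and not called, the rule named Apold1, an endothelial early response gene, and Atf3, a stress-induced transcription factor. Apold1 was at 3.10, 3.06 and 4.51 CPM under Wt CD, 1.83, 2.66 and 1.64 under ApoE KO CD, 4.11 and 3.81 under Wt HFD, and 2.34, 2.20 and 1.53 under ApoE KO HFD. Atf3 was at 63.8, 79.2 and 69.9 CPM under Wt CD, 56.8, 27.8 and 43.3 under ApoE KO CD, 70.7 and 53.4 under Wt HFD, and 46.0, 35.0 and 30.7 under ApoE KO HFD. Apold1 kept all 6 knockout-labelled libraries below the other 5, and Atf3 did so within each diet. Their averaged log2 differences were −0.89 (SE 0.19, edgeR adjusted p = 0.0937) and −0.73 (SE 0.16, edgeR adjusted p = 0.123).

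**Figure D4:**
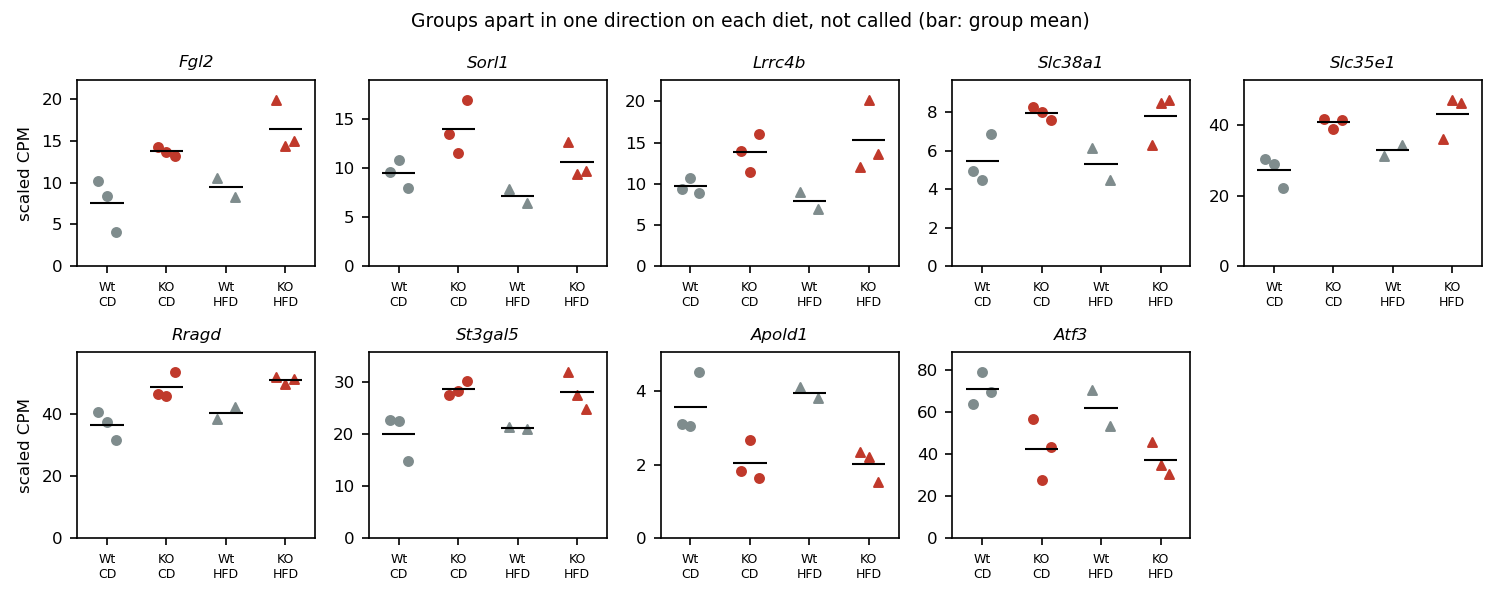
TMM-scaled CPM by library of the 9 named genes whose groups stood apart in the same direction on both diets and that were not called in the averaged contrast; points are libraries, bars are group means, grey is the wild-type and red the knockout label. Fgl2, Lrrc4b, Slc35e1, Rragd and St3gal5 are higher in all 6 knockout-labelled libraries, and Apold1 is lower in all 6.

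Promoter stretches are shown for the 4 of these 24 named genes that held one of 6 motifs searched on both strands: the E-box CACGTG, the D-box TTATGTAA, the AP-1 site TGANTCA, the cAMP response element TGACGTCA, the sterol response element TCACNCCAC and the interferon-stimulated element. Windows of 300 bases, 250 of them before the start, were found for 19 of the 24 genes in RefSeq (GRCm38.p6). The E-box was in 7.15% and the AP-1 site in 7.81% of 32851 such windows, the other motifs in 0.938 to 3.44%. Capitals mark the motif, and each stretch is written 5′ to 3′ on the gene's strand.
Abca1, chr4:53160010-53160069, minus strand: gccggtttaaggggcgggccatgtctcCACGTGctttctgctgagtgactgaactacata
Mgll, chr6:88724341-88724400, plus strand: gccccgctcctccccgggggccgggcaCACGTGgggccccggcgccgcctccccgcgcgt
Sorl1, chr9:42124298-42124343, minus strand: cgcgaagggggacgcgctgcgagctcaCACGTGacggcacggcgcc
Fgl2, chr5:21372630-21372672, plus strand: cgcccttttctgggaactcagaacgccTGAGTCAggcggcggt
Abca1 and Mgll were lower and Sorl1 was higher under the knockout label, so the genes with an E-box in this window did not share a direction. A match describes the letters and not a bound site.

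Genes of a pathway were then read together, by counts and medians beside those of all genes tested. Over all 16932 genes, 48.4% were below 0, 0.0945% were called lower and 0.00591% higher, and 4.38% were lower and 3.76% higher at an unadjusted p under 0.05. Of 22 PPAR-alpha targets tested, 21 were below 0 with a median of −0.31 (−0.39 on chow, −0.29 on high fat diet), and 17 were below 0 on both diets. Acot1 and Acot2 fell and are among 3 members called, all lower (0.0945% of all genes), and 11 members had an unadjusted p under 0.05 with a lower value (4.38% of all genes). With all 12 libraries the list's median was −0.17. Pdk4, the kinase that shuts pyruvate out of oxidation, was at 397 to 478 CPM under Wt CD and 154 to 321 under ApoE KO CD, and at 225 and 400 under Wt HFD against 128 to 241 under ApoE KO HFD. Its averaged log2 difference was −0.77 (edgeR adjusted p = 0.342), and that of Angptl4, an inhibitor of lipoprotein lipase, was −1.59 (SE 0.60, edgeR adjusted p = 0.558). Both were named after their values were seen.

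The enzymes of fatty acid oxidation had smaller differences. Of 23 tested, 21 were below 0 (48.4% of all genes), with a median of −0.18, none was called and 2 had an unadjusted p under 0.05, both lower (4.38% of all genes). That median was −0.073 without Wt CD replicate 2, −0.10 without Wt HFD replicate 2, −0.27 without ApoE KO HFD replicate 1, −0.37 with the endothelial covariate and, with its sign turned, 0.019 with all 12 libraries. These, completing the count, were Cpt1b, the carnitine transferase that admits fatty acids to mitochondria (−0.60), and Etfb, an electron carrier (−0.60). For both the difference was on chow, −1.30 and −1.21, with 0.09 and 0.01 on high fat diet.

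Among 17 LXR targets and lipid synthesis genes, 15 were below 0 (48.4% of all genes). Scd2, Abca1 and Srebf1 were called lower (0.0945% of all genes), Scd2 with −2.52 on chow and 0.11 on high fat diet. At an unadjusted p under 0.05, 7 were lower (4.38% of all genes). The median was −0.22, made of −0.50 on chow and 0.04 on high fat diet, and 7 of the 17 were below 0 on both diets. The averaged median was −0.37 without Wt CD replicate 3, −0.35 without ApoE KO CD replicate 1 and −0.40 with voom. Abcg1, the partner of Abca1 in cholesterol efflux, named after its values were seen, had −1.02 (edgeR adjusted p = 0.355), with −1.76 on chow and −0.29 on high fat diet. Fasn, fatty acid synthase, also named after its values were seen, had −0.44 on chow and 0.20 on high fat diet, and its groups were apart in opposite directions. Cholesterol synthesis genes had 11 above and 10 below 0, a median of 0.09 (0.023 to 0.14 when 1 library was left out) and no call or unadjusted p under 0.05 among 21. Their median was 0.10 on chow and −0.01 on high fat diet, and the averaged one was −0.013 with all 12 libraries.

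Of 26 genes of lipoprotein handling and apolipoprotein E receptors, 17 were below 0 with a median of −0.13, which was −0.21 without ApoE KO CD replicate 2. Abca1 and Gpihbp1 fell. Lrp1 (−0.15) and Vldlr (0.12), receptors of lipoprotein remnants, had SEs of 0.18 and 0.12 and edgeR adjusted p-values of 0.872 and 0.848.

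Immediate early genes, which respond to stimuli without new protein synthesis, lay mostly below 0. Of 27 tested, 26 were below 0 (48.4% of all genes) and 18 had an unadjusted p under 0.05 with a lower value (4.38% of all genes), with a median of −0.48 (−0.38 on chow, −0.57 on high fat diet). Fos was called (0.0945% of all genes were called lower). Gadd45g, a growth arrest gene (−0.89, SE 0.17, edgeR adjusted p = 0.0566), and Fosb, another AP-1 subunit (−1.12, SE 0.22, edgeR adjusted p = 0.122), are named after their values were seen. Gadd45g was at 23.8, 26.8 and 25.9 CPM under Wt CD and 12.5, 6.44 and 16.7 under ApoE KO CD, and at 17.6 and 14.9 against 10.1, 9.44 and 10.5 on high fat diet. The list's median was −0.63 with the endothelial covariate and −0.61 to −0.39 when 1 library was left out.

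The median over interferon-stimulated genes was −0.30. Of 35 tested, 24 were below 0 (48.4% of all genes), none was called, and 8 were lower and 1 higher at an unadjusted p under 0.05 (4.38% and 3.76% of all genes). The median was −0.17 without Wt CD replicate 1 or Wt HFD replicate 2, −0.12 without ApoE KO CD replicate 3, −0.15 with the replicate block, −0.0033 over the members with at least 50 counts in 3 libraries and 0.02 with the endothelial covariate. Irf1, an interferon-induced transcription factor, was at 2.55 to 4.59 CPM under Wt CD and 1.63 to 2.28 under ApoE KO CD, and at 2.00 and 3.45 under Wt HFD against 1.08 to 1.78 under ApoE KO HFD. Its groups were apart on both diets and its averaged difference was −0.85 (SE 0.22, edgeR adjusted p = 0.237). Of 21 antigen presentation genes tested, 14 were below 0 (48.4% of all genes), with a median of −0.16 and no call. At an unadjusted p under 0.05, 3 were lower (4.38% of all genes), and the median was 0.07 with the endothelial covariate. The member with the smallest p, the class I gene H2-Q7, had −1.28 (SE 0.28, edgeR adjusted p = 0.121). It had 14 to 56 counts per library and is one of a family of near-identical genes, and is thus uncertain.

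Among genes of the unfolded protein response, more were above 0 than below. Of 25 tested, 19 were above 0 with a median of 0.17 (0.25 on chow, 0.03 on high fat diet), none was called, and 4 had an unadjusted p under 0.05, all higher (3.76% of all genes). The median was 0.11 without Wt HFD replicate 1, 0.076 without ApoE KO HFD replicate 1 and 0.34 with all 12 libraries. Atf6, a sensor of misfolded protein in the endoplasmic reticulum, was at 59.7 to 87.6 CPM in the 5 wild-type-labelled libraries and 92.2 to 111 in the 6 knockout-labelled ones, without overlap. Its averaged difference was 0.28 (SE 0.11, edgeR adjusted p = 0.513).

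Contractile genes of the cardiomyocyte had a median near 0, while genes of the respiratory chain lay more often below than above 0. For sarcomere and calcium handling genes the median was 0.01 and 17 of 30 were above 0. For nuclear genes of oxidative phosphorylation it was −0.05, with 46 of 77 below 0, 1 call (Atp5k), and 10 lower and 0 higher at an unadjusted p under 0.05 (4.38% and 3.76% of all genes). That median was above 0 without Wt CD replicate 2 (0.046), Wt HFD replicate 2 (0.056) or ApoE KO HFD replicate 3 (0.015). It was also above 0 with all 12 libraries (0.14), and it was −0.26 with the endothelial covariate. Of 15 mitochondrially encoded genes 12 were below 0, with a median of −0.18, no call and 2 lower at an unadjusted p under 0.05. That median was −0.32 and −0.10 without ApoE KO CD replicates 1 and 3, and −0.0088 and −0.30 without ApoE KO HFD replicates 1 and 2. It was −0.0204 with all 12 libraries and −0.0045 with the endothelial covariate. For glycolysis genes the median was 0.05 with no call among 25. Fetal and hypertrophy genes had a median of 0.06 among 21, with no call. Macrophage markers had opposite medians on the 2 diets, 0.52 on chow and −0.32 on high fat diet, but spread widely within groups. Summed, they came to 61.4, 52.2 and 13.8 CPM under ApoE KO CD and 22.4 to 37.8 under Wt CD. On high fat diet the sums were 17.4 to 23.8 CPM under the knockout label, and 39.0 and 14.9 under the wild-type label. Their averaged median of 0.096 became −0.29 to 0.67 when 1 library was left out. Fibroblast markers had a median of −0.06. Atrial cardiomyocyte markers had a median of −0.29, which was 0.28 without Wt HFD replicate 1 and between −0.46 and −0.21 in the other 10 fits without 1 library.

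**Figure D5:**
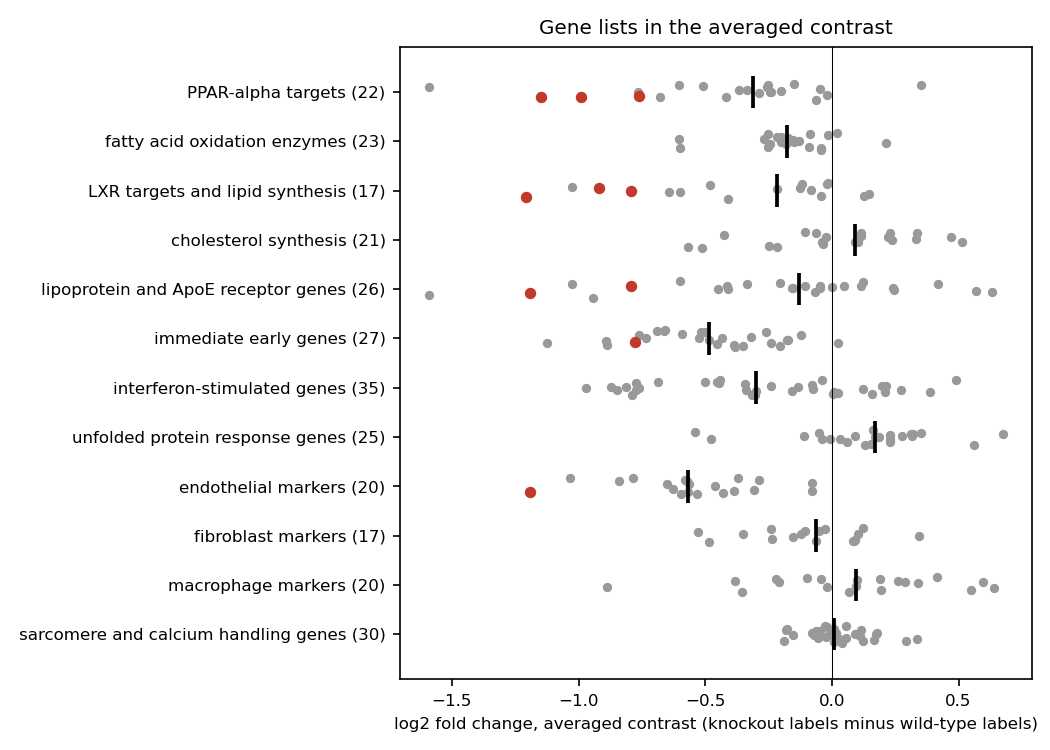
Averaged log2 fold change of the tested members of 12 gene lists (points, with called genes in red), the black bar being the list's median and the number tested in parentheses. Endothelial markers all lie below 0 with a median of −0.57, immediate early genes all but 1, and sarcomere and calcium handling genes lie close around 0.

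Near Apoe, more genes were called in the interaction than in the averaged contrast. Of 243 tested genes within 10 Mb of Apoe, 1 was called in the averaged contrast (Lgals4) and 13 in the interaction (0.1% and 0.219% of all genes), and 40.7% had the same sign on both diets, against 49.1% of all genes. Groups were apart in opposite directions for 23 of them (1.88% of all genes), 18 lower on chow and higher on high fat diet and 5 the reverse. They were apart in one direction for 4, a share close to the 1.77% of all genes: Fosb, B9d2 and Dmac2 lower and Akt2 higher, named after their values were seen to complete the count. Igsf23, an immunoglobulin family gene, was at 2.59, 5.41 and 4.96 CPM under Wt CD and 0.619, 0.398 and 0.506 under ApoE KO CD. On high fat diet it was at 0.466 and 0.579 CPM under the wild-type label and 5.07, 5.60 and 6.14 under the knockout label. Libraries labelled Wt CD and ApoE KO HFD were thus high together, and the diet-specific changes of −3.06 and 3.41 averaged to 0.17 (SE 0.23, edgeR adjusted p = 0.889). Blvrb, biliverdin reductase B, and Pnmal2, both named after their values were seen, had the same arrangement, with −1.97 and 2.43, and −1.82 and 2.25, and averages of 0.23 and 0.21.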

How the data were processed

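Per the labels' protocols, a Maxwell RSC kit gave the RNA and the SMART-Seq Stranded kit the libraries. Trimmomatic 0.39, STAR 2.7a and HTSeq 0.13.5 with GRCm38 (mm10) are named in the submitters' processing notes, and the strand setting and the annotation are not given in the sources used here. The authors deposited whole-number counts per gene, without normalization, 1 file for each of 12 libraries. Symbols and positions came from GENCODE M21, which matched 55154 of 55335 identifiers. Total counts are 22130323 to 46424614 in 11 libraries and 1347110 in the library left out. Intervals cover counting error only.

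Counts were fitted with edgeR 4.0.16 in R 4.3.3: TMM factors, filterByExpr by group (minimum count 10), a mean for each group, and the quasi-likelihood F test in its robust form, two-sided, with Benjamini-Hochberg adjustment over 16932 genes, 7 residual degrees of freedom and a common BCV of 0.2003. Calls were made at an adjusted p under 0.05. SEs are the log2 fold change divided by the square root of F. "Apart" means that no library of one group reaches the other in TMM-scaled CPM. Alternatives used limma 3.58.1, DESeq2 1.42.0 and the settings named in the closing section.

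Named genes were Apoe; called genes whose log2 CPM averaged at least 1 and that had a regular symbol, up to 12 in each direction and up to 5 with opposite signs; up to 8 in each direction among genes apart on both diets, by the larger p; for each list its called members, at most 2, or else the one with the smallest p; Lrp1 and Vldlr; and 5 genes within 10 Mb of Apoe with the largest interaction. Not every gene the rule takes is described: one called gene and one receptor gene are not reported here. The contrast, the gene lists and this rule were chosen with earlier results of these data known, so no list is independent evidence of its direction. Within groups no library was a duplicate of another: counts of genes with 20 or more differed with a chi-square of 24.5 to 189.7 times its degrees of freedom. Pairs of libraries from different groups, and Wt HFD replicate 3, were not compared in this way.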

Additional observations from a re-analysis of the deposited data

Results flagged for a closer look

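For 37 of 16932 genes (0.219%), 13 of them within 10 Mb of Apoe, the difference between knockout and wild-type labels itself differed between the diets, by the interaction in edgeR's quasi-likelihood test (difference on high fat diet minus difference on chow, log2). Of these, the 9 described in the results are given here. Apoe had −5.03 (SE 0.76, adjusted p = 0.0427). Near Apoe, Igsf23 had 6.46 (adjusted p = 5.29e-07), Pnmal2 4.06 (adjusted p = 1.26e-05), Blvrb 4.41 (adjusted p = 1.85e-05) and Lgals4 −2.998 (adjusted p = 6.05e-05). Away from Apoe, Scd2 had 2.64 (adjusted p = 0.000648), Atp5k 1.61 (adjusted p = 0.0181), Gm20594 2.999 (adjusted p = 0.00162) and Gm11407 2.37 (adjusted p = 0.0340), and all 4 differed on chow and had a difference of at most 0.32 in size on high fat diet. Of these 9 genes Scd2, Atp5k, Lgals4, Gm20594 and Gm11407 were also called in the averaged contrast, which for them is not a difference shared by both diets.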

How the results depend on the processing

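The count of 17 called genes became 0 with all 12 libraries, 82 with DESeq2, 41 with voom, 164 without a filter, 9 with the additive model, 26 with a covariate of endothelial, fibroblast and macrophage markers and 11 with a covariate of endothelial markers. It was 21 with RLE factors, 19 with at least 50 counts in 3 libraries, 17 without mitochondrial genes and 18 with an atrial covariate. Without a filter the median of all genes was 0.12. Leaving out 1 library gave 3 to 273: 273 without Wt CD replicate 2, 8 without Wt CD replicate 3, 7 without Wt HFD replicate 1, and 3, 11, 5 and 7 without ApoE KO CD replicate 3 and ApoE KO HFD replicates 1, 2 and 3. Of the 17 genes, 2 to 17 remained called in these fits. Called genes with a called interaction (5) became 0 with all 12 libraries, 14 with DESeq2, 24 without a filter and 2 with the endothelial covariate, and 1 to 53 without 1 library (53, 3, 2 and 1 without Wt CD replicates 2 and 3, Wt HFD replicate 1 and ApoE KO CD replicate 3, and 3, 2 and 2 without ApoE KO HFD replicates 1, 2 and 3). Genes passing on both diets (0) became 1 with DESeq2 and 3 without a filter, and 0 in each fit without 1 library. Genes apart in one direction on both diets (299) became 158 with all 12 libraries, 490 without a filter and 378 to 834 without 1 library (554 and 691 without Wt CD replicates 1 and 2, 648 and 834 without Wt HFD replicates 1 and 2, 459 without ApoE KO CD replicate 2, and 510 and 471 without ApoE KO HFD replicates 1 and 2), where smaller groups separate more easily. The additive model gives no value per diet, and separation of libraries has no value under a block or covariate.

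The groups share replicate numbers. Of 15 same-numbered pairs 1 had deviations correlated above 0.1 (range −0.18 to 0.19), so the numbers were not taken to pair the libraries. With the replicate block 16 genes were called, 13 of them among the 17, with 4 called interactions and 0 genes passing on both diets.

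Signs changed for these genes, none of them called. With the additive model Igsf23 was −0.45, Pnmal2 −0.16 and Blvrb −0.18, and with the block Npas1 was 0.17. With the endothelial covariate Cxcl12 was 0.11, Nkpd1 1.39, Vldlr −0.075 and Blvrb −0.092. Leaving out 1 library gave −0.27 to 0.034 for Lrp1 (above 0 without Wt CD replicate 1), −1.20 to 0.35 for Nkpd1 (above 0 without Wt HFD replicate 1), −0.050 to 0.53 for Apoe (below 0 without Wt HFD replicate 2), −0.67 to 0.037 for Gm16175 (above 0 without ApoE KO CD replicate 3), and −0.52 to 0.88 for Npas1 (0.88 without Wt HFD replicate 2, 0.085 without ApoE KO HFD replicate 2). Nkpd1, Npas1 and Gm16175 had at most 13, 14 and 21 counts in any library, so their values are uncertain. The cause of these changes was not tested.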
